A study of Mus musculus with 1 sample.

Results

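The genes described here encode the actin cytoskeleton, read in a library labelled as c-kit+ BM cells, that is, actin itself and the proteins that nucleate, cap, sever, bundle, sequester and pull on its filaments. A list of 40 gene symbols was chosen by function, with earlier results of these data known. All 40 were found among the 54532 Ensembl genes of the expression table. Bone marrow (BM) cells of C57BL/6 mice with the wild-type genotype, called Ctrl, had been sorted for the receptor c-kit, and the sample label adds lack of lineage markers and of Sca1 to the gate. Total RNA was extracted with TRIzol and sequenced as 1 Illumina library, for which the number of mice, and whether their cells were pooled, are not given in the sources used here. The study set such cells beside those of Gadd45g-deficient mice with myeloproliferative neoplasm (MPN), whose library was not analysed here. There is thus 1 library with no replicates, no difference between conditions was computed, and no test was made.

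Actin exists as monomers and as filaments, and a cell moves, divides and keeps its shape by shifting actin between these states. The Arp2/3 complex starts branches on existing filaments when WASP or WAVE proteins activate it, capping protein stops growth at the fast-growing end, and cofilin cuts and disassembles old filaments. Profilin and the beta-thymosins hold the monomer pool, tropomyosins coat filaments, and non-muscle myosin II pulls on them. In blood cells this machinery serves migration, phagocytosis and the shedding of platelets, and RAC GTPases act upstream of it.

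Levels are given in FPKM, which scale the fragments on a gene by the length of its exons and by the total of the library. Multiplied by exon length, the FPKM values of 38 of the 40 genes were whole multiples of 1 common step, so that the number of fragments behind each could be recovered. For these genes a 95% Wilson interval is given in brackets. It covers counting error only, since copies of 1 molecule made by PCR are counted as separate fragments and no spread between mice was measured. The multiples, rounded where they were not whole, summed to 17113323 over all genes, which is 1.08 times the total of 15783891 that the step implies. Why these totals differ was not tested. Genes with whole multiples held 15899824 of them.

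The labelled population was checked against its markers, which went in part against the label. *Kit* itself had 7.17 FPKM from 1008 fragments and *Ly6a*, which encodes Sca1, had 28.5 FPKM from 543 fragments. The gene selected against was thus higher in FPKM than the gene selected for, but lower in fragments without division by length. With the markers of mature cells given next, whether the sorted cells match the label is in doubt. All levels below are those of the library labelled c-kit+ BM cells. Markers of granulocyte-macrophage progenitors (6 of 6 at or above 1 FPKM, median 310.0 FPKM) and of megakaryocyte-erythroid progenitors (6 of 6, median 67.7 FPKM) were present, whereas none of 5 stem cell markers reached 1 FPKM. Markers of mature neutrophils (9 of 9, 109 to 26677 FPKM) and of erythroid cells (6 of 6, 1037 to 25466 FPKM) held 12.5% and 11.6% of the summed FPKM. Genes of B cells (6 of 6 at or above 1 FPKM) held 1.56%, those of macrophages (5 of 5, 24.0 to 50.3 FPKM) 0.0460%, those of megakaryocytes and platelets (6 of 7) 0.0207% and those of T cells (5 of 5) 0.00862%. Of 6 smooth muscle and stroma genes, *Cxcl12* and *Col1a1* of stroma had 6.57 and 1.39 FPKM and the others, with *Myh11* and *Des* of smooth muscle at 0.0333 and 0 FPKM, were under 1 FPKM. Fewer cells of a type and less RNA per cell cannot be told apart in bulk RNA, and the part of these other cells in the levels below was not tested.

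The listed actin genes, chosen with earlier results of these data known, were abundant in this library. At or above 1 FPKM were 38 of the 40 genes, against 22.2% of all 54532 genes and 46.8% of the 21995 protein-coding genes. At or above 100 FPKM were 21 of the 40, against 2.06% of the protein-coding genes, and 26 were among the 1000 genes with the highest level. Their median was 109 FPKM, beside 0.600 FPKM for protein-coding genes and 1.77 FPKM for all genes above 0. Together they made up 2.14% of the summed FPKM and 2.51% of the fragments, also when only genes with whole multiples were counted. The sum was unevenly held, as *Tmsb4x* alone accounted for 26.4% of it and the 4 highest genes for 52.8%. The lowest and the highest member, *Pfn2* and *Tmsb4x*, lay 4819-fold apart. The 40 genes lie on 18 chromosomes.

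**Figure D1:**
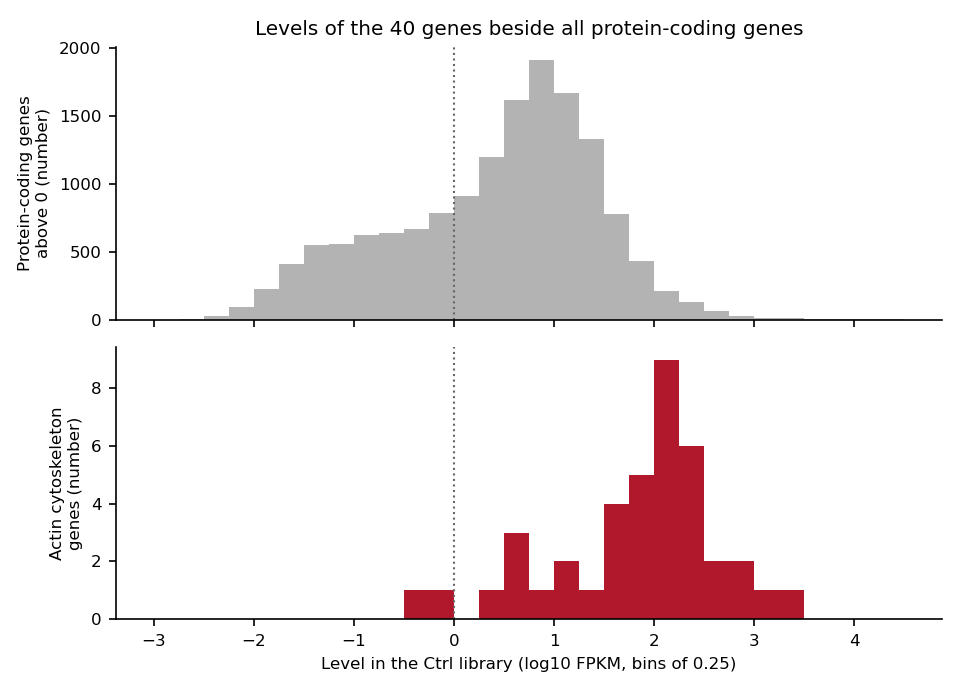
Number of genes by level in the Ctrl library (horizontal axis, log10 of FPKM in bins of 0.25), for protein-coding genes above 0 (upper panel) and for the 40 actin cytoskeleton genes (lower panel), with a dotted line at 1 FPKM. The actin genes sit to the right of most protein-coding genes, with 38 of 40 at or above the line and 21 at or above 100 FPKM.

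Monomer-binding thymosins had the highest summed FPKM of any role, whereas in fragments without division by length the actins led with 75642. The Arp2/3 genes had 69658 fragments, the crosslinking and severing genes 67676 and the thymosins 57012. *Tmsb4x*, which encodes thymosin beta-4, the main actin monomer sequestering peptide of blood cells, had 2414 FPKM [2394 to 2435] from 52240 fragments and was the 15th gene of the library by level. *Tmsb10*, its paralog thymosin beta-10, had 237 FPKM [230.3 to 244], so *Tmsb4x* was 10.2-fold higher (exact 95% interval 9.89 to 10.5). *Tmsb4x* (ENSMUSG00000049775) lies on the reverse strand at chrX:167207093-167209315 and *Tmsb10* (ENSMUSG00000079523) on the reverse strand at chr6:72957347-72958748 (GRCm38). Both encode 44 residues, of which 75.0% are identical after alignment. Their whole coding sequences are shown because they are short enough to see how reads of the pair are told apart. Capitals mark the 40 of 135 bases that differ.
Tmsb4x: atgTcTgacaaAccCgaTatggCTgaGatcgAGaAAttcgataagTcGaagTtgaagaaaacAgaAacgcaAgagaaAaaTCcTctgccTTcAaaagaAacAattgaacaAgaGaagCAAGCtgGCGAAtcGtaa
Tmsb10: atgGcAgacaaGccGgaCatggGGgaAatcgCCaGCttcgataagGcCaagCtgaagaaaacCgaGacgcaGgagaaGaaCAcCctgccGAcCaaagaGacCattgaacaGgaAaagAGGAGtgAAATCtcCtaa
The differing bases are spread along the whole frame and are densest at its end, where the peptides differ in their last residues. No pseudogene with long stretches identical to *Tmsb4x* was found.

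The cytoplasmic actins came next. *Actb*, which encodes beta-actin, had 1180 FPKM [1170 to 1190] from 49896 fragments, and *Actg1*, which encodes gamma-actin, had 614 FPKM [606 to 621] from 25746 fragments. Beta-actin RNA was thus 1.92-fold higher (exact interval 1.89 to 1.95), and the ratio was 1.94 to 1.97 on other length scales. The 2 actins summed to 1794 FPKM, and the thymosins summed to 2651 FPKM, which is 1.48 times as much per exon length and 0.754 times as much in fragments. *Actb* (ENSMUSG00000029580) lies on the reverse strand at chr5:142903115-142906754 and *Actg1* (ENSMUSG00000062825) on the reverse strand at chr11:120345690-120348542. Their proteins of 375 residues are 98.9% identical and their coding sequences 88.7%. The opening 60 of 1128 coding bases are shown because the residues that set the isoforms apart lie at this end, with the 9 differing bases in capitals.
Actb: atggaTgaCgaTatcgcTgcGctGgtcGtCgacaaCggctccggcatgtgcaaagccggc
Actg1: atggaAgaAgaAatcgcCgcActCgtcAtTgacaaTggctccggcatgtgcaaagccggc
All 9 fall within the opening stretch of the frame, and the rest of the window is the same in both. Of the muscle actins, *Acta2* of smooth muscle had 7.19 FPKM, *Acta1* of skeletal muscle had 0.0412 FPKM from 1 fragment, and *Actc1* and *Actg2* were listed at 0.

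Some fragments of these actins could belong to copies elsewhere. For *Actg1*, 6 annotated pseudogenes share at least 100 stretches of 50 exact bases with its transcripts, and they summed to 58.9 FPKM, of which *Gm12715* held 52.7 FPKM. For *Actb* the only such pseudogene was at 0. How fragments that match several places were counted is not given in the sources used here, so the split of fragments between *Actg1* and its copies is uncertain.

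Profilin and cofilin were each carried by 1 of the 2 genes listed for them. The further profilin genes *Pfn3* and *Pfn4* of a wider list had 0 and 0.106 FPKM. *Pfn1*, which encodes the profilin that feeds monomers to growing ends, had 457 FPKM [450.4 to 464] from 17355 fragments. *Pfn2*, the form best known from brain, had 0.501 FPKM [0.347 to 0.724] from 28 fragments and was the lowest of the 40 genes. The ratio was 913 (exact interval 631 to 1374), the widest between any paralogs of the list. *Cfl1*, which encodes the non-muscle cofilin, had 548 FPKM, and *Cfl2*, the muscle form, had 4.11 FPKM [3.59 to 4.71], a ratio of 133. *Cfl1* has no interval because its value was not a whole multiple of the step, and 16.5% of its exon bases overlap *Snx32* on the other strand, which had 5.87 FPKM. The summed actins were 3.92 times *Pfn1* and 3.27 times *Cfl1* in FPKM, and 1.94 and 3.75 times with the lengths of the principal transcripts. Among the other severing and monomer-binding genes of a wider list, *Cap1*, which helps cofilin turn filaments over, had 251 FPKM, *Dstn*, the cofilin relative destrin, had 174 FPKM, and *Wdr1*, a cofilin cofactor, had 40.3 FPKM. The twinfilins *Twf2* and *Twf1* had 64.2 and 9.09 FPKM. At or above 1 FPKM were 8 of the 14 genes of that group, beside 46.8% of protein-coding genes.

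**Figure D2:**
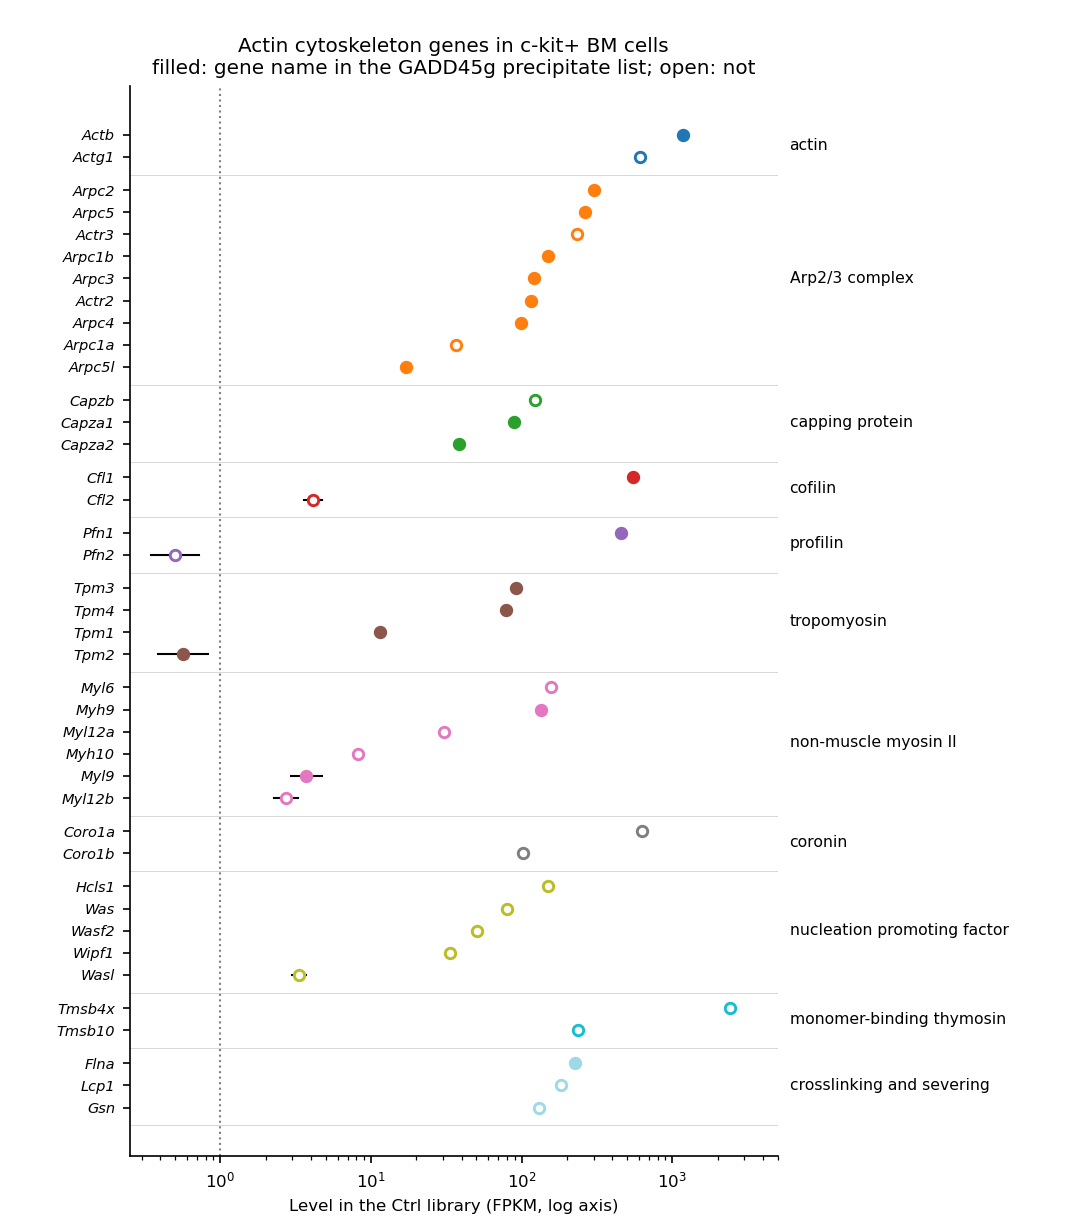
Level of each of the 40 genes in the Ctrl library (horizontal axis, FPKM on a log scale), grouped by role, with bars for the 95% Wilson interval of counting error and a dotted line at 1 FPKM. Filled points are the 19 genes whose name is in the GADD45g precipitate list and open points the 21 that are not, and only *Pfn2* and *Tpm2* lie left of the line.

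All 7 subunits of the Arp2/3 complex were expressed. The actin-related proteins at its core were encoded by *Actr2* at 116 FPKM [113 to 118] and by *Actr3* at 235 FPKM [231 to 238]. For *Actr3*, 2 pseudogene copies summed to 21.4 FPKM. *Arpc2*, which with *Arpc4* forms the scaffold that clamps onto the mother filament, had the highest level of the subunit genes at 303 FPKM [297 to 309], and *Arpc4* had 99.2 FPKM [96.0 to 102]. *Arpc3*, a smaller peripheral subunit, had 121 FPKM [118 to 124]. These genes encode proteins that stand in equal number in an assembled complex, yet the highest subunit, ARPC2, was 3.05 times the lowest, ARPC4, in FPKM. The order among the subunits depends on which length divides the fragments, and without a length ARP3 was highest, with 17152 fragments against 9710 for ARPC2. With the length of the principal transcript, the isoform that the annotation ranks as the main one, *Arpc3* went from 121 to 372 FPKM, since its annotated exons cover 2762 bases and its principal transcript has 899. ARPC2 stayed highest and ARPC4 lowest on that scale, at 428 and 101 FPKM. In *Arpc4*, 12.2% of the exon bases are shared with *Ttll3* on the same strand, which had 3.33 FPKM.

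**Figure D3:**
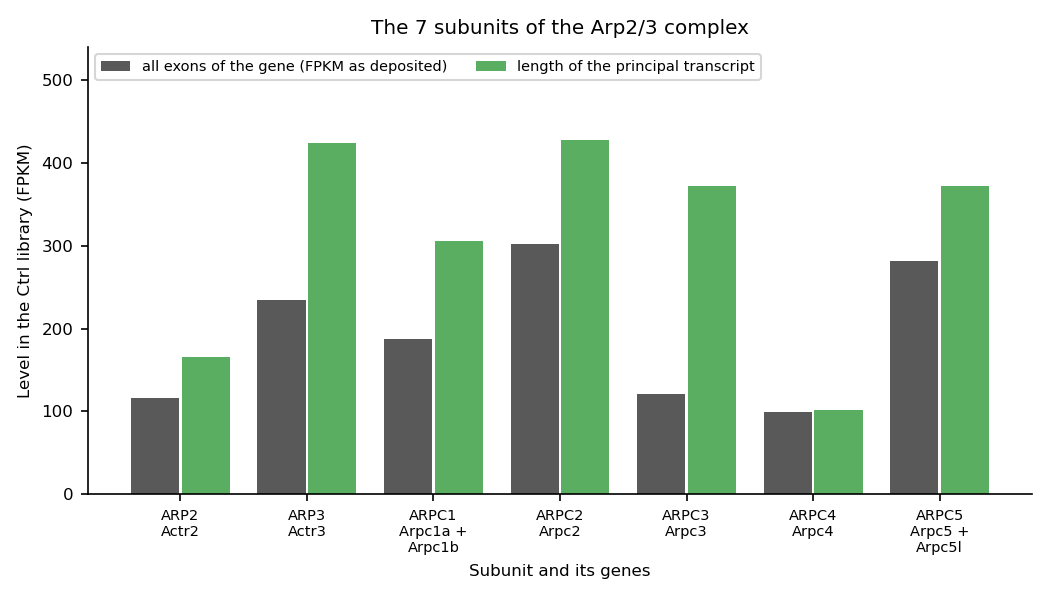
Level of each of the 7 Arp2/3 subunits in the Ctrl library (vertical axis, FPKM), with paralogs summed, divided by all exon bases of the gene (grey) or by the length of its principal transcript (green). ARPC4 is lowest in both, at 99.2 and 101 FPKM, while ARPC3 moves from 121 to 372 FPKM.

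For 2 subunits a pair of genes can fill the same place, and in both pairs 1 gene led. *Arpc1b*, the form that blood cells depend on and whose loss causes an immune deficiency in people, had 151 FPKM [148 to 153], and *Arpc1a* had 36.6 FPKM [34.7 to 38.5]. The ratio was 4.12 (exact interval 3.91 to 4.36), with proteins that are 67.9% identical. The genes are neighbours on the forward strand, at chr5:145083830-145108761 for *Arpc1a* and chr5:145114215-145130705 for *Arpc1b*. *Arpc5* had 265 FPKM [259.7 to 270.4] and *Arpc5l* 17.1 FPKM [16.2 to 18.1], a ratio of 15.5 that became 5.48 with principal transcript lengths. *Arpc1b* shares 18.2% of its exon bases with *Pdap1* on the other strand, which had 19.1 FPKM, and a pseudogene copy of it, *Gm5637*, had 13.0 FPKM.

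Among the 5 listed genes that switch on or steady Arp2/3, *Hcls1* and *Was*, both best known from blood cells, had the highest FPKM. *Hcls1*, which encodes HS1, the hematopoietic relative of cortactin that steadies branches, had 149.9 FPKM [146 to 154]. *Was*, the gene of Wiskott-Aldrich syndrome and the WASP of blood cells, had 80.4 FPKM [77.6 to 83.4], and its widely expressed relative *Wasl* (N-WASP) had 3.32 FPKM [2.98 to 3.70]. *Was* exceeded *Wasl* 24.2-fold (exact interval 21.6 to 27.3), and by 9.36-fold in fragments without division by length. *Wipf1*, which encodes the partner WIP that protects WASP from degradation, had 33.4 FPKM [32.3 to 34.6], and *Wasf2*, which encodes the WAVE2 protein that RAC activates, had 50.4 FPKM [49.0 to 51.8]. The WAVE paralog *Wasf1* had 0.0222 FPKM from 1 fragment, and *Wasf3* had 0 FPKM.

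WAVE acts as a complex with other subunits, which stood in the wider list. *Nckap1l*, the hematopoietic form HEM1, had 67.3 FPKM against 1.75 FPKM for *Nckap1*, and *Cyfip2* had 72.5 FPKM against 7.85 FPKM for *Cyfip1*. *Brk1* and *Abi1* had 116 and 39.8 FPKM. Of 15 genes of the WAVE complex and related factors, 11 were at or above 1 FPKM, beside 46.8% of protein-coding genes. The other class of nucleators, the formins, had 9 of 13 genes at or above 1 FPKM, led by *Fmnl1* of blood cells at 105 FPKM and *Diaph1* at 49.5 FPKM. *Vasp*, whose protein speeds growth at filament tips, had 253 FPKM, its relative *Evl* had 21.7 FPKM and *Enah* had 0.0620 FPKM.

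Capping protein is a pair of an alpha and a beta chain. *Capza1* had 89.0 FPKM [86.7 to 91.5] and *Capza2* 38.5 FPKM [37.3 to 39.8], which together came to 128 FPKM for the alpha chain. *Capzb*, the only beta gene, had 123 FPKM [120.4 to 126], or 0.967 times the summed alpha genes. That ratio turned with the length used, to 1.23 with principal and 1.43 with longest transcripts, and was 0.722 in fragments. The alpha genes differed 2.31-fold (exact interval 2.22 to 2.41), a lead that narrowed to 1.18-fold with principal transcript lengths. A pseudogene copy of *Capza1*, *Gm3608*, had 14.3 FPKM. *Capg*, a capping relative of gelsolin, had 80.1 FPKM.

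The coronins, which link Arp2/3 to cofilin at branches, were led by the gene of leukocytes. *Coro1a* (ENSMUSG00000030707, reverse strand, chr7:126699773-126707787) had 629 FPKM [622 to 636] from 27631 fragments and was the 50th gene of the library by level, above *Actg1*. With the FPKM of its pseudogene copies added, *Actg1* came to 673 FPKM, above *Coro1a*. That sum overstates its level with their fragments counted, since the FPKM of each copy is divided by a shorter length. *Coro1b*, the widely expressed form, had 101 FPKM, and the ratio was 6.20. *Coro1b* has no interval, and 13.5% of its exon bases are shared with *Ptprcap*, a leukocyte gene on the same strand that had 103 FPKM. *Coro7*, *Coro1c* and *Coro2a* of the wider list had 21.3, 11.0 and 9.10 FPKM.

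The 3 genes that crosslink or cut filaments were all above 100 FPKM. *Flna*, which encodes filamin A, the crosslinker of orthogonal networks, had 227 FPKM [225 to 229] from 33668 fragments. *Lcp1*, which encodes L-plastin, the bundling protein of leukocytes, had 184 FPKM [181 to 186], while the epithelial and widely expressed plastins *Pls1* and *Pls3* had 0.651 and 0.673 FPKM. *Gsn*, which encodes the severing protein gelsolin, had 130.0 FPKM [127 to 133], and its relative *Scin* had 0.803 FPKM. *Flnc*, which encodes the filamin of muscle, had 0.00674 FPKM from 1 fragment. The alpha-actinins *Actn4* and *Actn1* had 58.6 and 50.5 FPKM, and their muscle forms were under 1 FPKM.

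Tropomyosins were nearly all the products of 2 genes. *Tpm3* had 92.4 FPKM [90.5 to 94.4] and *Tpm4* 79.3 FPKM [76.4 to 82.3], and together they held 93.4% of the tropomyosin FPKM. *Tpm1* had 11.5 FPKM [10.9 to 12.2], and *Tpm2*, best known from muscle, had 0.566 FPKM [0.386 to 0.830] from 26 fragments. The ratio of *Tpm3* to *Tpm4* was 1.17 (exact interval 1.12 to 1.22) as deposited and 3.07 with principal transcript lengths. The exons of *Tpm3*, pooled over 16 annotated transcripts, cover 6085 bases, whereas its principal transcript has 2233. For *Tpm4* the lengths are 2203 and 2128 bases. These genes make short and long tropomyosins from the same locus, and a single value per gene does not tell which was made.

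Non-muscle myosin II is built of heavy chains, essential light chains and regulatory light chains. *Myh9* (ENSMUSG00000022443, reverse strand, chr15:77760587-77842175), the heavy chain of myosin IIA, had 135 FPKM [133 to 136] from 27480 fragments, and *Myh10*, that of IIB, had 8.26 FPKM [7.84 to 8.71], a ratio of 16.3 (exact interval 15.4 to 17.2). *Myl6*, the essential light chain, had 157 FPKM [153 to 160.3]. Its exons cover 3187 bases and its principal transcript has 665. With principal transcript lengths *Myl6* had 751 FPKM and *Myh9* had 234 FPKM. Regulatory light chains, which carry the phosphorylation that turns the motor on, summed to 37.1 FPKM beside 143 FPKM for the heavy chains, which they match in number in the assembled motor. Of these, *Myl12a* had 30.7 FPKM [29.2 to 32.2], *Myl9* of smooth muscle and platelets had 3.71 FPKM [2.92 to 4.70] from 68 fragments, and *Myl12b* had 2.72 FPKM [2.27 to 3.26] from 119 fragments. Beside *Myl9*, platelet markers were present, with 6 of 7 at or above 1 FPKM, *Ppbp* at 38.7 FPKM and *Pf4* at 20.2 FPKM. Of the smooth muscle markers *Myh11*, *Cnn1* and *Des*, none reached 0.1 FPKM. The smooth muscle actin gene *Acta2*, however, had 7.19 FPKM, more than *Myl9*. The part of platelets or of smooth muscle cells in the level of *Myl9* was not tested. *Mylk*, a kinase of these light chains, had 0.917 FPKM.

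*Myl12a* and *Myl12b* share sequence and annotation. They are neighbours on the reverse strand of chromosome 17, at chr17:70993656-71002878 and chr17:70973133-70990890. The annotation gives the symbol *Myl12b* to a further identifier, ENSMUSG00000117098, which spans both loci at chr17:70974119-71002208 and had 0.211 FPKM from 4 fragments. It shares 26.7% of the exon bases of *Myl12b* (ENSMUSG00000034868) and 13.8% of those of *Myl12a* on the same strand. All of its own 1201 exon bases are shared with these genes. In addition, the coding sequences of *Myl12a* and *Myl12b* are 96.5% identical. The opening 60 of 519 coding bases are shown because only 4 of them, in capitals, can tell the genes apart.
Myl12a: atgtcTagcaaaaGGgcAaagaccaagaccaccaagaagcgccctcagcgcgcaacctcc
Myl12b: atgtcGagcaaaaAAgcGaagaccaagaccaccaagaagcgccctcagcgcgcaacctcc
The 4 bases lie near the start codon, and the remaining stretch of the window is the same in both genes. The ratio of *Myl12a* to *Myl12b* was 11.3 (exact interval 9.35 to 13.7). How reads from shared sequence and shared exons were assigned is not given in the sources used here, and their part in the ratio was not tested. The near-identical coding part takes 519 of the 3360 and 2770 exon bases of the genes. The exons shared with the further identifier take 462 bases of *Myl12a* and 739 of *Myl12b*.

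**Figure D4:**
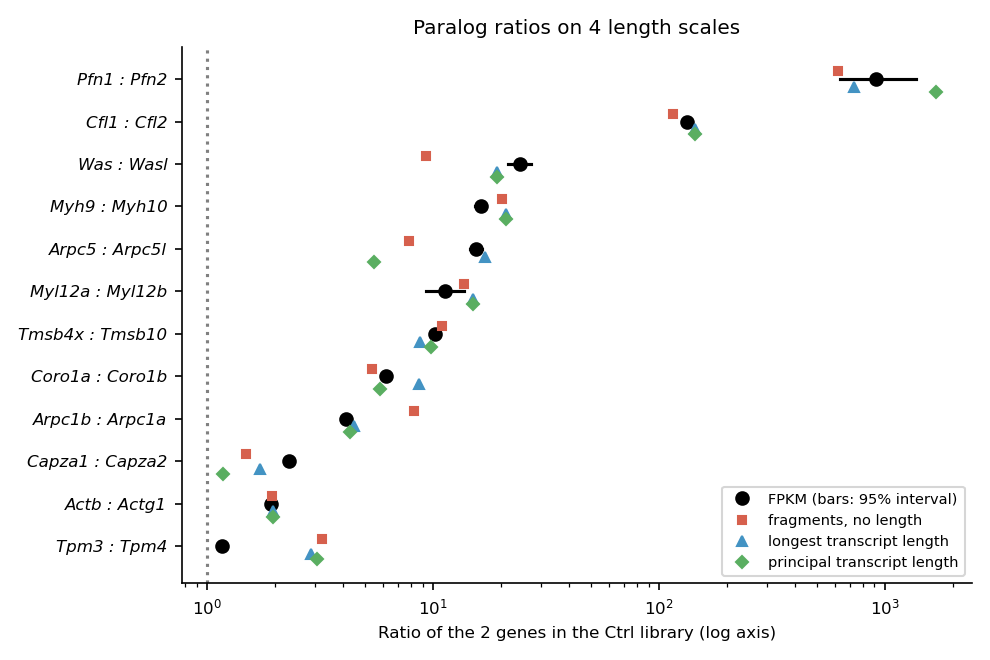
Ratio of 2 paralogs in the Ctrl library (horizontal axis, log scale) for 12 pairs, in FPKM (black, with exact 95% intervals of counting error where both genes have whole fragments), in fragments with no length (red), and with the length of the longest (blue) or principal (green) transcript. All ratios lie right of the dotted line at 1, from 1.17 for *Tpm3* to *Tpm4* up to 913 for *Pfn1* to *Pfn2* in FPKM.

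Across the 12 paralog pairs the leading gene was the same on all 4 length scales, while the size of the lead was not. *Actb* to *Actg1* moved least. The ratios of *Arpc5* to *Arpc5l*, *Pfn1* to *Pfn2*, *Was* to *Wasl* and *Tpm3* to *Tpm4* each moved by more than 2-fold between scales. The exon bases of a gene exceeded the length of its principal transcript by 1.02 to 4.79 times (median 1.42) and by at least 2 times in 8 genes, with *Myl6* at the upper end.

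Around the members, most listed genes that tie actin to the membrane and control it reached 1 FPKM. Of 7 membrane linkers, 6 were at or above 1 FPKM, among them *Msn* (moesin, the main ERM protein of leukocytes) at 145 FPKM, *Tln1* (talin 1, which activates integrins) at 135 FPKM and *Ezr* at 96.8 FPKM. All 9 kinases and phosphatases of the wider list were at or above 1 FPKM, from *Limk1*, a kinase that inactivates cofilin, at 2.80 FPKM to *Pak2*, a kinase bound by RAC, at 34.0 FPKM. The 85 genes of the wider list had 55 at or above 1 FPKM, beside 46.8% of protein-coding genes, and a median of 7.05 FPKM. Among its groups, crosslinkers had 5 of 11, other myosin II genes 1 of 4 and muscle actins 1 of 4 at that level.

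The study also lists proteins found by mass spectrometry in material that a GADD45g antibody precipitated from wild-type c-kit+ BM cells. Of the 40 genes, 19 have an entry there by gene name and 21 do not. The sheet names 1 precipitate and no control precipitate, so an entry says only that a protein of that name was listed as found. Entries were more common among abundant genes in general, at 3.73% of protein-coding genes at or above 1 FPKM and 23.8% of those at or above 100 FPKM, members included. Of the actin genes, 18 of 38 and 10 of 21 at these levels had an entry. Genes with an entry had a median of 116 FPKM (0.566 to 1180) and genes without one a median of 101 FPKM (0.501 to 2414), and the ranges overlapped almost wholly. By role, *Actb*, 7 of the 9 Arp2/3 genes, both *Capza* genes, *Cfl1*, *Pfn1*, all 4 tropomyosin genes, *Myh9*, *Myl9* and *Flna* had an entry. Neither coronin, none of the 5 genes that activate or stabilise Arp2/3, and neither thymosin did, although *Tmsb4x* and *Coro1a* were among the highest in RNA.

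An entry by name depends on which gene a peptide is given to. Cut with trypsin in silico into peptides of 7 to 30 residues, *Actb* and *Actg1* share 19 of 20 peptides and have 1 each that no other gene has, so most peptides of *Actb*, which has an entry, and of *Actg1*, which has none, cannot be told apart. Counted by gene symbol, *Myl12a* has none of 9 peptides to itself, *Myl12b* has 2 of 9 and *Myl9* has 4 of 9. The symbol *Myl12b* here includes the further identifier that spans both loci. The principal proteins of *Myl12a* and *Myl12b* share only 6 of 9 peptides. The part of the further identifier in the count of none was not tested. *Myl9*, the only regulatory light chain with an entry, had 3.71 FPKM against 30.7 FPKM for *Myl12a*. Of the tropomyosins, which all have an entry, *Tpm3* has 3 of 17 peptides to itself, *Tpm1* 9 of 16, *Tpm2* 10 of 16 and *Tpm4* 12 of 15. *Tmsb10* has 2 peptides, none of its own, and *Tmsb4x* has 2, of which 1 is its own. By contrast *Coro1a*, without an entry, has 18 of 19 peptides to itself, and *Lcp1*, also without one, has 31 of 38.

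Promoter windows of RefSeq (GRCm38.p6, 250 bases before to 50 after a start site) were searched for the CArG box, the site bound by serum response factor, a regulator of actin genes, on both strands. Of the 37 members with a window, 4 held a match (*Actg1*, *Arpc4*, *Myl6* and *Myl9*), in 4 of 47 windows, beside 1.63% of 32851 windows of all genes. The letters TATAAA on either strand were in 2 of the 47 windows (*Hcls1* and *Myh9*), beside 13.6% of all windows. The matches of *Actg1*, *Arpc4* and *Myl9* are shown with up to 25 bases on each side and the box in capitals, because these genes differ in level. The window of *Actg1* is chr11:120348551-120348610 (reverse strand), that of *Arpc4* is chr6:113377863-113377897 (forward strand) and that of *Myl9* is chr2:156775278-156775337 (forward strand).
Actg1: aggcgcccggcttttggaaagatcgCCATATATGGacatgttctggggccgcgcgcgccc
Arpc4: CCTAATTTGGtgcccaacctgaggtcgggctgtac
Myl9: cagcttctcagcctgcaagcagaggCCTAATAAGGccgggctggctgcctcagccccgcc
The boxes end 80, 240 and 151 bases before the RefSeq start sites. Of the 4 genes with a match, *Actg1* had 614 FPKM, *Myl6* 157 FPKM, *Arpc4* 99.2 FPKM and *Myl9* 3.71 FPKM, so their levels differed widely. The match of *Myl6* lies before an internal start site. No window was held for *Actb*, *Arpc5l* and *Coro1b*.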

How the data were processed

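The authors sequenced RNA of sorted c-kit+ BM cells (Illumina HiSeq), and the Ctrl library, 1 in all, was used. The deposited values are FPKM, computed by the authors as 1 value per Ensembl gene. The submitters' processing notes name HISAT2 2.0.5, featureCounts 1.5.0-p3 and mm10. The annotation, strandedness and treatment of multiply mapped reads are not given in the sources used here.

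GENCODE M21 (GRCm38) gave symbols, exon lengths and coordinates, and 37 of the table's identifiers have no entry in it. FPKM times exon length was divided by the common step, and products within 0.01 of a whole number were taken as fragments (whole reads recovered for 96.4% of 21322 genes above 0). Genes not whole were given no interval, and their rounded multiples enter sums and ratios. Recovery was tested on simulated data. Ratios carry exact Clopper-Pearson intervals. No count model was run, since 1 library allows no test. A gene was called present at 1 FPKM. Protein and coding identity, peptides and shared stretches were computed from GENCODE transcripts with Biopython 1.88. Of the precipitate list only gene names were used.

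The 40 members were all named, and the members, the wider actin list and the marker lists were chosen with earlier results of these data known. Some genes of the wider list are not reported here. Alternatives were other minimums, other totals, other lengths and the levels of pseudogene copies. Scripts ran in Python 3.11.15 (scipy 1.17.1, pandas 2.3.3, numpy 2.4.6) and figures were drawn with matplotlib 3.10.9.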

Additional observations from a re-analysis of the deposited data

How the results depend on the processing

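No paired analysis was possible because there is 1 library and no result comes from a test. Of the 40 genes, 40 were at or above 0.1 FPKM, 33 at or above 10 FPKM and 40 had at least 10 fragments. Of all 54532 genes, 21322 were above 0, and their shares at these minimums were not computed. Principal transcript lengths, the share without *Tmsb4x* or without genes that were not whole, and all scales for ratios of summed roles were chosen after seeing the data. The median of 109 FPKM became 118 without the 10 most abundant genes in the total, 111 without mitochondrial genes, 160 with longest and 169 with principal transcript lengths, 95.8 without the actins and thymosins, and 335 when fragments were scaled to the library total as in FPKM but not divided by length. The share of 2.14% became 2.88% and 2.22% with those totals, 2.51% in fragments (of all genes and of whole genes only), 2.57% with longest lengths and 1.57% without *Tmsb4x*. The spread of the Arp2/3 subunits, 3.05, became 4.72 in fragments, with ARP3 in place of ARPC2 highest, and 4.22 with longest and with principal lengths. With the FPKM of pseudogene copies added, the sums were 673 for *Actg1*, 256 for *Actr3*, 167 for *Myl6*, 164 for *Arpc1b* and 103 for *Capza1*. These sums lay above the members' intervals. However, the FPKM of a copy is divided by the length of that copy, which was always shorter than the member's exon length. The sums thus overstate the levels that members would have with the fragments of their copies. Whether those levels would lie above the intervals was not computed. The sums for *Actb*, *Tpm4* and *Lcp1* stayed within their intervals, and that for *Cfl1*, which has no interval, was 552 FPKM.

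In fragments without a length the ratios were 8.22 for *Arpc1b* to *Arpc1a*, 7.83 for *Arpc5* to *Arpc5l*, 1.48 for *Capza1* to *Capza2*, 116 for *Cfl1* to *Cfl2*, 619.8 for *Pfn1* to *Pfn2*, 3.22 for *Tpm3* to *Tpm4*, 20.1 for *Myh9* to *Myh10*, 5.38 for *Coro1a* to *Coro1b*, 9.36 for *Was* to *Wasl* and 10.9 for *Tmsb4x* to *Tmsb10*. With longest and then principal lengths they were 17.1 and 5.48 for *Arpc5*, 1.71 and 1.18 for *Capza1*, 2.89 and 3.07 for *Tpm3*, 21.1 and 21.1 for *Myh9*, 8.67 and 5.82 for *Coro1a*, 19.3 and 19.3 for *Was*, and 8.74 and 9.84 for *Tmsb4x*, each over the same paralog. *Actb* to *Actg1* was 1.97 and 1.97, *Myl12a* to *Myl12b* was 15.1 and 15.1, *Arpc1b* to *Arpc1a* was 4.46 with longest lengths and *Pfn1* to *Pfn2* was 1686 with principal lengths. None of these 12 paralog ratios changed direction. Of the ratios between summed roles, thymosins to actins turned from 1.48 to 0.754 in fragments, and *Capzb* to its alpha genes turned from 0.967 to 1.43 with longest and 1.23 with principal lengths. Actins to *Pfn1* went from 3.92 to 1.94 with principal lengths, and myosin heavy to regulatory light chains from 3.85 to 15.9 in fragments. Apart from the length itself, which enters each of these values by construction, no cause of a change was tested.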
